A study of Mus musculus with 2 samples.

Results

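The genes described here are 10 members of the common gamma chain and IL-12/IL-18 receptor families, taken from the 31053 genes of droplet single-cell RNA sequencing (scRNA-seq) libraries of tumor-infiltrating immune cells (TIIs). They were chosen by name. They are *Il2ra*, *Il2rb*, *Il2rg*, *Il7r*, *Il15ra* and *Il21r*, the IL-15 gene *Il15*, the IL-12 receptor chains *Il12rb1* and *Il12rb2*, and *Il18r1*. Each was read in cells whose mitochondrial transcripts made up at most 25% of the total, as the UMIs (captured mRNA molecules) of a gene among all UMIs of a gate, on the CPM scale, in CD8 T cells that were dividing or not dividing, conventional CD4 T cells, regulatory T cells (Tregs) and NK cells. *Il15* and *Il15ra* were also read in myeloid cells and dendritic cells (DCs).

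The common gamma chain, encoded by *Il2rg*, pairs with cytokine-specific chains to form the receptors for IL-2, IL-7, IL-15 and IL-21, which signal through JAK1, JAK3 and STAT proteins. IL-2 and IL-15 share the beta chain encoded by *Il2rb*, and the alpha chain of the IL-2 receptor, CD25, raises its affinity and marks Tregs and recently activated T cells. IL-7 keeps naive and memory T cells alive, IL-15 is presented to NK and CD8 T cells on the IL-15 receptor alpha chain of myeloid cells and DCs, and IL-12 with IL-18 drives interferon-gamma in T and NK cells.

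All cells came from male C57BL/6J mice, 8 to 12 weeks old by the general methods, that bore subcutaneous B16-OVA tumors, a mouse melanoma line engineered to express ovalbumin. The control group received PBS and the other group intraperitoneal creatine, at 10.5 mg per animal in the labels. The protocol entry of the control library lists this injection too. Its title names it untreated and its treatment label PBS, and it was used as the control. On day 14, 4 tumors per group were combined, living CD45.2+ cells were sorted and 10000 cells per group were loaded, so each condition is 1 library of pooled mice and the model is 1 transplanted line. Other passages of the study give another harvest day and number of mice, and the values here are those of the labels. With no replicate there is no test and no p-value. Every interval is a 95% interval, exact Poisson for CPM, exact conditional binomial for ratios and exact Clopper-Pearson for shares, and covers counting error only, not the spread between mice.

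The libraries held 7241 control and 6229 creatine cells after the mitochondrial filter, and 30 barcodes occurred in both libraries. Unique molecular identifiers (UMIs) were summed over the cells of a gate and divided by all UMIs of that gate. The gates used marker genes that are not members, and took in 72.0% of control and 77.9% of creatine cells. Dividing CD8 T cells, with UMIs of at least 3 of 12 division genes, numbered 1209 and 1011, and CD8 T cells with at most 1 such gene numbered 860 and 731. There were 176 and 205 CD4 T cells, 299 and 188 Tregs, 721 and 1160 NK cells, 1421 and 1156 myeloid cells and 206 and 160 DCs. Median UMIs per cell ranged from 3742.5 in control CD4 T cells to 19363 in creatine dividing CD8 T cells, and 1 UMI was worth at most 1.29 CPM in any of these gates. Markers left out of the gates were checked: summed *Trac* and *Trbc2* stood at 1700 to 2538 CPM in the T cell gates, 301 and 319 in NK cells and at most 30 in myeloid cells and DCs. A list of 6 macrophage genes (*Lyz2*, *Apoe*, *C1qa*, *C1qb*, *C1qc*, *Ctss*) summed to between 169 and 591 CPM in the lymphoid gates, against 21004 and 24935 in myeloid cells. None of its genes was at 0 in any of these gates, its sum was lower in the creatine library in all 5 lymphoid gates, and its part in the results was not tested. In summed counts, fewer cells that express a gene and less RNA per cell cannot be told apart.

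Positions are those of GRCm38 (GENCODE M21). *Il2ra*, at chr2:11642807-11693193 on the plus strand, and *Il15ra*, at chr2:11705290-11734317 on the same strand, are neighbors, with 12096 bases and no annotated gene between them. *Il2rb* (chr15:78479256-78495271) and *Il7r* (chr15:9505788-9530176) share chromosome 15 on the minus strand. *Il15* lies at chr8:82331632-82403222 (minus), *Il12rb1* at chr8:70808449-70821424 (plus), *Il21r* at chr7:125603429-125633570 (plus), *Il12rb2* at chr6:67291318-67376188 (minus), *Il18r1* at chr1:40465552-40500854 (plus) and *Il2rg* at chrX:101264378-101268255 (minus). The gene model *Gm20489* spans *Il2rg* on the same strand and *Gm37881* overlaps *Il2ra*, so reads there may be ambiguous between the models, and *Serbp1* overlaps *Il12rb2* on the other strand.

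Start-site windows of 300 bases were given by RefSeq (GRCm38.p6) for 7 of the 10 members, and not for *Il2rb*, *Il15* and *Il12rb1*. On both strands, they were searched for TTCNNNGAA (the GAS motif that STAT dimers bind), for GAAA and GAAA with any 2 bases between them (ISRE) and for GGGA and CCC with any 3 bases between them (kB, the NF-kB motif), which occurred in 8.30%, 3.44% and 5.55% of 32851 such windows. The windows of the 3 receptor genes that were past the fold downward in a lymphoid gate are printed 5′ to 3′, with every match in capitals. *Il2ra* (chr2:11642542-11642841, plus strand) holds a kB match 201 bases before its start. *Il12rb2* (chr6:67376139-67376438, minus strand), the gene lower in CD4 T cells and Tregs, holds a GAS match 123 bases before and a kB match 1 base before its start. *Il7r* (chr15:9529827-9530126, minus strand), the receptor that was lower in NK cells, holds a GAS match 142 bases before its RefSeq start. That start differs from the GENCODE one, and the whole *Il7r* window, with its match, lies inside the gene as GENCODE places it. A match is a description of the letters and not a bound site.
Il2ra: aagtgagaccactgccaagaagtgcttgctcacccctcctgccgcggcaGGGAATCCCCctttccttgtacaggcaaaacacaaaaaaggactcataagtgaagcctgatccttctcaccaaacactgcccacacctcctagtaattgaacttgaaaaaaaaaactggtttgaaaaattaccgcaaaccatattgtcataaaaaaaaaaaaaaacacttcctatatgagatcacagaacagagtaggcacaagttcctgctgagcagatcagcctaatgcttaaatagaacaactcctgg
Il12rb2: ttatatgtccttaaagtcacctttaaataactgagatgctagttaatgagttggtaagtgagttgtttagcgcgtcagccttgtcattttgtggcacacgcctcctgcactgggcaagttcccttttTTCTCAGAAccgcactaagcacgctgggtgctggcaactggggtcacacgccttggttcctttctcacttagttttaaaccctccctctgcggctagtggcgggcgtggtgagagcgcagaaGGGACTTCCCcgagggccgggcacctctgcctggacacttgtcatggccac
Il7r: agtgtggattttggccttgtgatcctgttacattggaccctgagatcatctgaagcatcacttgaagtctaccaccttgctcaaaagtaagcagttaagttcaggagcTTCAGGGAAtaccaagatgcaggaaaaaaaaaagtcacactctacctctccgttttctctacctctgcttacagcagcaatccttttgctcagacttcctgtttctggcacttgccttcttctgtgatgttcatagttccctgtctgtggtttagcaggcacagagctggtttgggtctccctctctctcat
The windows of *Il2rg*, *Il15ra* and *Il21r* hold none of these motifs, and no member window holds an ISRE match. Of 3 windows of *Il18r1*, 1 holds GAS matches 219 and 152 bases before its RefSeq start. That window, too, lies inside the gene as GENCODE places it.

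A member was counted as past the fold when it had at least 50 UMIs over both libraries in a gate and its CPM differed by at least 1.5-fold. In dividing CD8 T cells, 9 of 10 members had that minimum; *Il12rb1* was past the fold upward, beside 3.83% of 10843 genes, and *Il2ra* downward, beside 4.09%. In non-dividing CD8 T cells, *Il12rb1* was higher among 9 members (3.94% of 8978 genes) and no member was lower (3.49%). In CD4 T cells, none of 7 members was higher (6.29% of 5007 genes), and *Il2ra* and *Il12rb2* were lower (5.41%). In Tregs, none of 9 was higher (6.74% of 7018 genes) and *Il12rb2* was lower (4.66%). In NK cells, none of 9 was higher (3.12% of 9076 genes) and *Il7r* was lower (4.11%). In myeloid cells, neither *Il15* nor *Il15ra* was past the fold, beside 6.79% of 10709 genes that were higher and 7.72% that were lower. In DCs, *Il15ra* was lower, beside 7.51% of 7934 genes, and neither was higher (9.36%). The median log2 ratio of creatine to control over the members with the minimum ran from -0.13 in CD4 T cells to 0.12 in non-dividing CD8 T cells among the lymphoid gates, where that over all genes ran from 0.01 to 0.05. Most receptor genes thus differed by less than 1.5-fold between the libraries. *Il12rb1* was past the fold in both CD8 gates, *Il2ra* in dividing CD8 and CD4 T cells, and *Il12rb2* in CD4 T cells and Tregs. *Il7r* was past it in NK cells alone among the lymphoid gates.

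**Figure D1:**
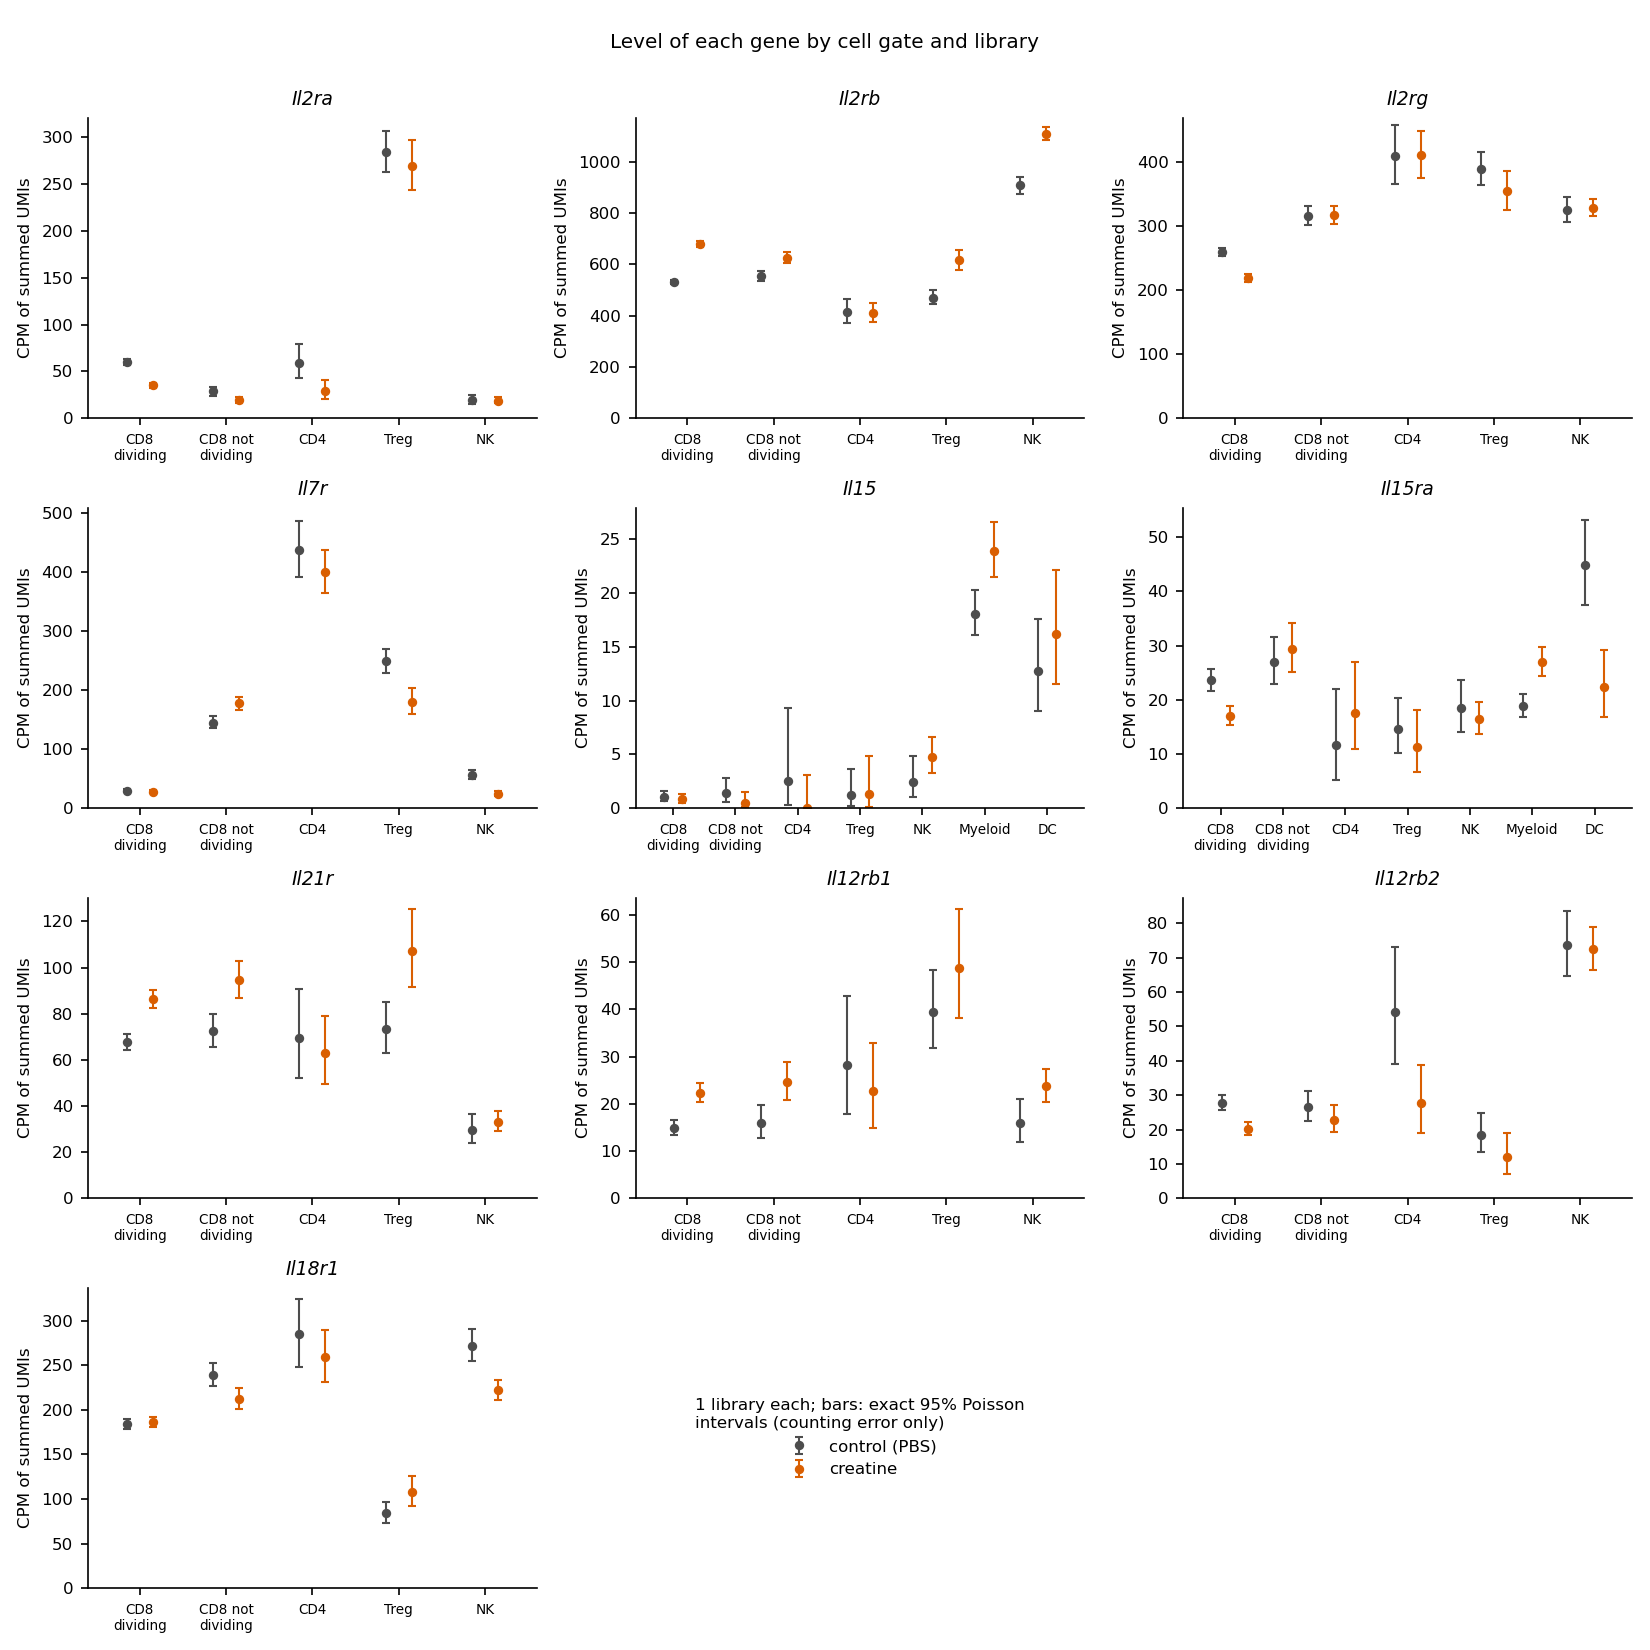
CPM of each of the 10 genes (y axis, from 0) in each gate (x axis) for the control library (grey) and the creatine library (orange); points are 1 library each and bars are exact 95% Poisson intervals. *Il2ra* was highest in Tregs (284 and 269 CPM), *Il2rb* in NK cells (908 and 1110 CPM), *Il7r* in CD4 T cells (438 and 400 CPM) and *Il15* in myeloid cells (18.1 and 23.9 CPM).

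**Figure D2:**
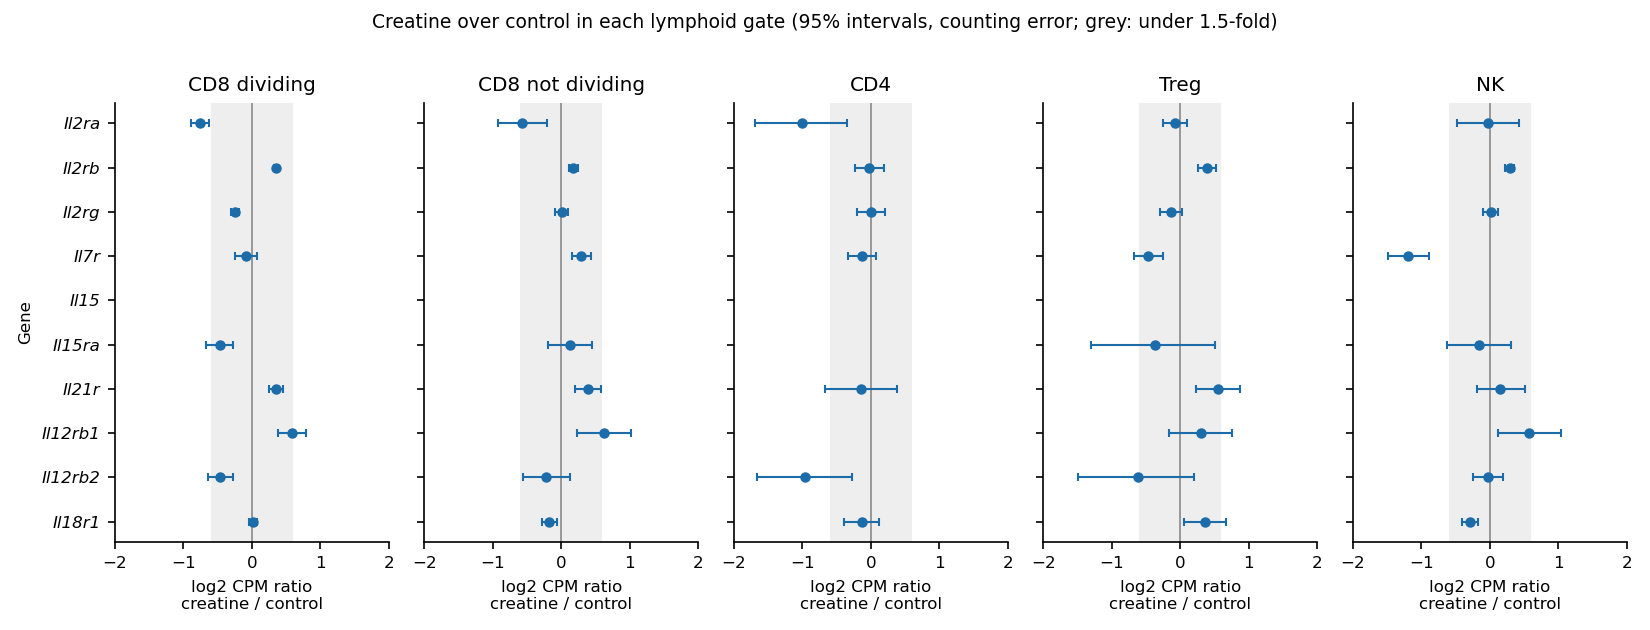
Log2 ratio of CPM, creatine over control (x axis), for each gene (y axis) in the 5 lymphoid gates, with 95% intervals for counting error; the grey band marks ratios under 1.5-fold and genes under 50 UMIs are left out. *Il2ra* lies left of the band in dividing CD8 and CD4 T cells (-0.76 and -1.01) and *Il7r* in NK cells (-1.19), while *Il2rb* lies between -0.02 and 0.39 in every gate.

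*Il2ra*, the alpha chain of the high-affinity IL-2 receptor, was lower in the creatine library in CD8 and CD4 T cells and differed little in Tregs. In dividing CD8 T cells it stood at 59.9 CPM (56.7 to 63.1; 1354 UMIs) in the control and 35.3 (32.9 to 37.9; 775 UMIs) in the creatine one, a log2 ratio of -0.76 (-0.89 to -0.63). Non-dividing CD8 T cells held 28.6 CPM (24.3 to 33.4) against 19.3 (15.9 to 23.2), a log2 ratio of -0.57 (-0.93 to -0.21) that lies just inside the fold. It was past the fold without the highest doublet scores, with TMM scaling and without mitochondrial and ribosomal protein genes. The same held with thinned cells and with division genes counted in thinned cells. The difference was thus of one direction in both kinds of CD8 T cell. In CD4 T cells 59.2 CPM (43.3 to 79.0) stood against 29.4 (20.5 to 40.8), a log2 ratio of -1.01 (-1.69 to -0.35) that rests on 46 and 35 UMIs. With stricter gates, with thinned cells or without cells that held an *Ikzf2* UMI, neither *Il2ra* nor *Il12rb2* was past the fold in CD4 T cells. Tregs held 284 CPM (263 to 306) and 269 (244 to 297), a log2 ratio of -0.08 (-0.26 to 0.10), and NK cells 19.3 (14.9 to 24.7) and 18.9 (15.9 to 22.3). In those gates the intervals of the libraries overlap. Of the 139 creatine *Il2ra* UMIs in NK cells, 36 lay in 3 cells. With equal weight per cell or with thinned cells, *Il2ra* was past the fold downward in NK cells. NK cells without the maturation markers *S1pr5*, *Zeb2*, *Cma1* and *Klrg1* held 22.0 and 13.8 CPM on 42 and 47 UMIs. Their log2 ratio was -0.68 (-1.31 to -0.04). Mature NK cells lay on the other side, at 18.2 and 28.6 CPM, a log2 ratio of 0.65 (-0.25 to 1.67). That value rests on 12 and 68 UMIs, and 31 of the 68 lay in 3 cells. Among gates, Tregs stood apart from all others, whereas dividing CD8, CD4, non-dividing CD8 T cells and NK cells, in that order, did not differ from their neighbors beyond the range of both libraries. Tregs exceeded CD4 T cells by a log2 ratio of 2.26 (1.83 to 2.73) in the control and 3.20 (2.70 to 3.74) in the creatine library.

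The share of cells with *Il2ra* had the same direction. After thinning every cell to 2000 UMIs, 9.03% of dividing control CD8 T cells (7.47 to 10.8) and 4.36% of creatine ones (3.18 to 5.80) held an *Il2ra* UMI, and 38.8% and 25.3% without thinning. In myeloid cells, taken as cells that should hold little *Il2ra*, the share was 0.725% and 0.440% after thinning, at median depths of 9490 and 9702 UMIs against 16345 and 19363 in dividing CD8 T cells. In Tregs the thinned shares were 38.7% (32.9 to 44.7) and 33.7% (26.8 to 41.2). All of *Il2ra*, *Il2rb* and *Il2rg*, the chains of the complete IL-2 receptor, were detected together in 2.90% (2.03 to 4.01) of thinned dividing control CD8 T cells and 0.891% (0.408 to 1.68) of creatine ones, and in 37.7% and 24.9% without thinning. In Tregs these shares were 16.4% and 14.0% after thinning, and in myeloid cells 0 of 1379 and 0 of 1136, which by the limit of 3 counts allows up to 0.218% and 0.264%.

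*Il2ra* also followed the division genes. Over CD8 T cells binned by how many of the 12 division genes had a UMI, a number that also grows with depth per cell, the control library held 18.9 CPM with none, 34.9 with 1 or 2, 55.4 with 3 to 5, 60.1 with 6 to 8 and 61.1 with 9 to 12. The creatine library held 14.3, 26.9, 31.7, 27.0 and 38.4 CPM in the same bins. The CPM intervals of the libraries overlapped in the lowest bins and not in the 3 bins from 3 genes upward, where the log2 ratio was -0.81, -1.16 and -0.67. With 1 or 2 genes the log2 ratio was -0.38 (-0.68 to -0.08), an interval below 0. With none it was -0.41 (-1.10 to 0.28), which includes 0. Dividing over non-dividing cells, *Il2ra* was higher by a log2 ratio of 1.07 (0.83 to 1.31) in the control and 0.87 (0.59 to 1.17) in the creatine library. Among non-dividing CD8 T cells, those with UMIs of the checkpoint genes *Pdcd1*, *Havcr2* and *Lag3* held 36.3 CPM (30.6 to 42.8) and 24.5 (19.8 to 30.1), and naive-like or memory-like cells only 3 and 6 UMIs. The difference of the control and creatine libraries was therefore also present in checkpoint-positive cells alone, at a log2 ratio of -0.57 (-0.96 to -0.18).

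**Figure D3:**
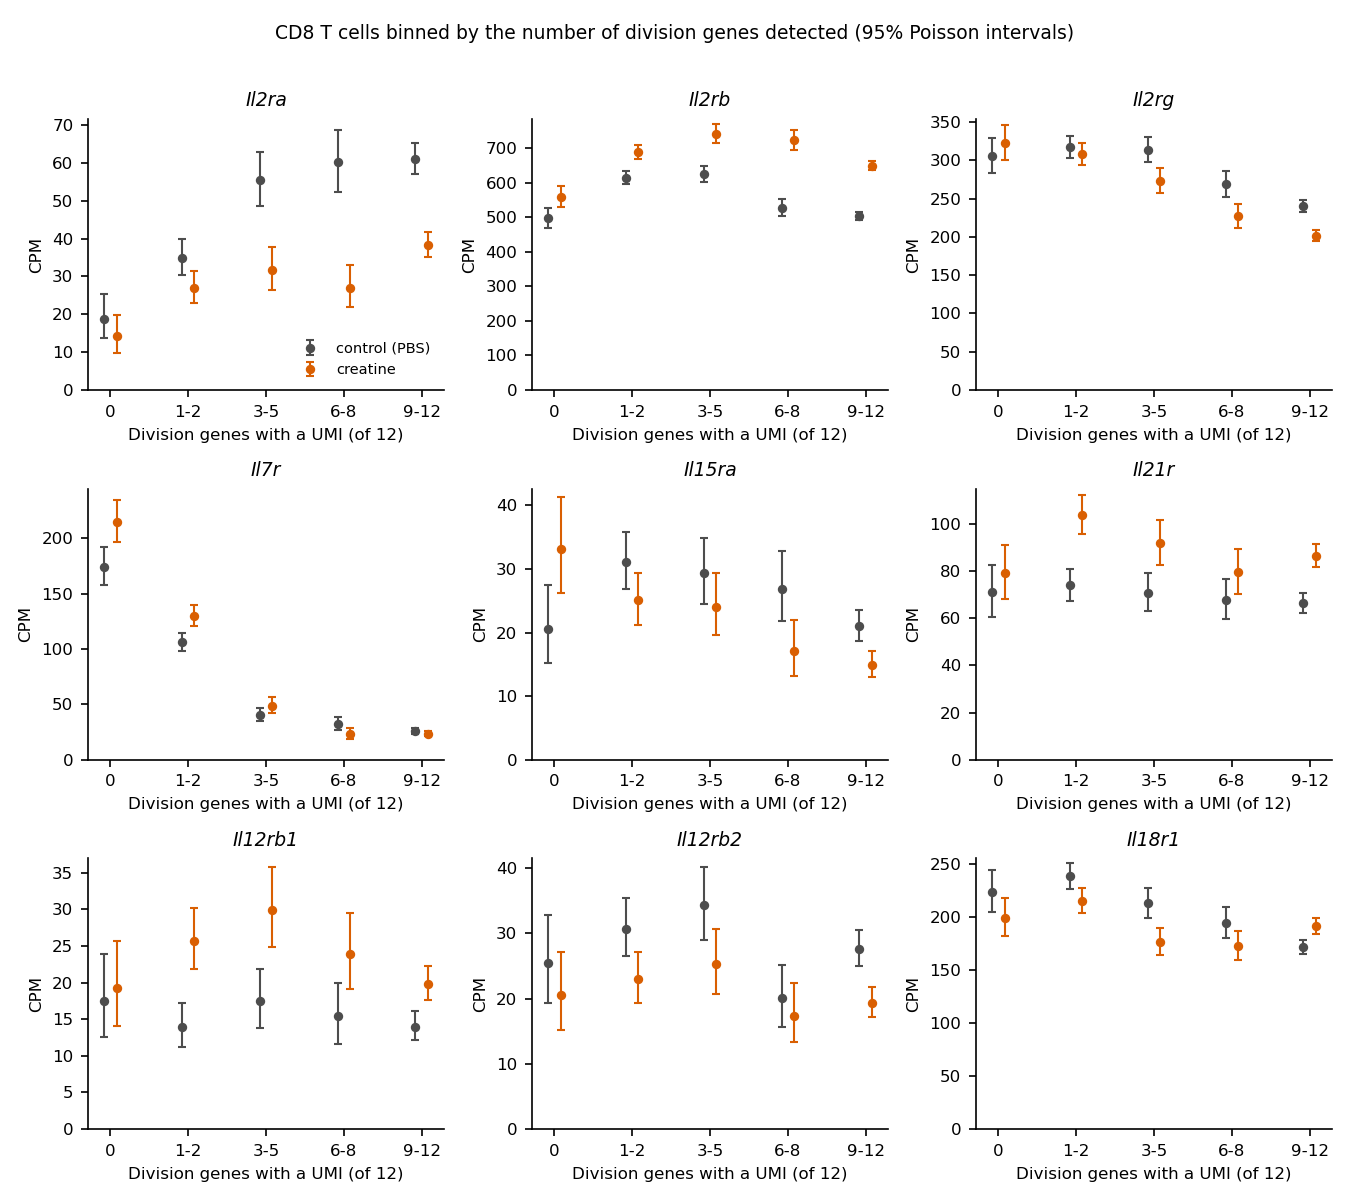
CPM of 9 of the genes (y axis) in CD8 T cells grouped by the number of 12 division genes with a UMI (x axis), for the control (grey) and creatine (orange) library with 95% Poisson intervals. From the lowest to the highest bin, *Il2ra* went from 18.9 to 61.1 CPM in the control and from 14.3 to 38.4 in the creatine library, and *Il7r* from 174 to 25.9 and from 215 to 23.5.

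*Il2rb*, the chain that IL-2 and IL-15 receptors share, was higher in the creatine library in 4 of 5 lymphoid gates, each time by less than 1.5-fold. Dividing CD8 T cells held 531 CPM (522 to 541) and 678 (667 to 689), a log2 ratio of 0.35 (0.32 to 0.39). Non-dividing CD8 T cells held 553 (534 to 573) and 626 (606 to 646), and Tregs 471 (444 to 499) and 616 (577 to 657). In dividing CD8 T cells *Il2rb* and *Il2ra* thus lay on opposite sides of equality. NK cells held the most, 908 CPM (876 to 941) and 1110 (1086 to 1134), and stood apart from every T cell gate, while CD4 T cells held 416 (372 to 464) and 410 (374 to 448), a log2 ratio of -0.02 (-0.23 to 0.19). Mature NK cells, with UMIs of *S1pr5*, *Zeb2*, *Cma1* and *Klrg1*, made up 16.2% of control and 32.6% of creatine NK cells and held 774 and 1101 CPM, and NK cells without these markers 973 and 1104. *Il2rb* was thus higher in both NK subsets of the creatine library, with log2 ratios of 0.51 (0.37 to 0.65) and 0.18 (0.10 to 0.26). The DC genes *H2-Aa*, *Itgax* and *Cst3* summed to 1722 CPM in control and 337 in creatine mature NK cells. In NK cells without the markers they summed to 343 and 323. The part of this difference in the results on mature NK cells was not tested. Checkpoint-positive CD8 T cells exceeded naive-like or memory-like ones by 0.98 (0.78 to 1.18) and 0.92 (0.79 to 1.06) on the log2 scale.

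*Il2rg*, the common gamma chain itself, was the most even member. It ranged from 219 CPM in creatine dividing CD8 T cells to 410 in creatine CD4 T cells, and CD4 T cells, Tregs, NK cells and non-dividing CD8 T cells followed each other with overlapping ranges. Dividing CD8 T cells stood below them, at 259 CPM (252 to 266) in the control and 219 (213 to 225) in the creatine one, a log2 ratio of -0.24 (-0.30 to -0.19). In non-dividing CD8 T cells the values were 316 (301 to 331) and 317 (302 to 331), in CD4 T cells 409 and 410, and in NK cells 325 and 328. Outside dividing CD8 T cells no lymphoid gate had *Il2rg* intervals that were apart between the libraries, and in Tregs the log2 ratio was -0.14 (-0.29 to 0.02).

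*Il7r*, the IL-7 receptor alpha chain, was lower in creatine NK cells and Tregs and somewhat higher in creatine non-dividing CD8 T cells. NK cells held 56.8 CPM (48.9 to 65.6; 185 UMIs) and 24.9 (21.4 to 28.8; 183 UMIs), a log2 ratio of -1.19 (-1.49 to -0.89). The thinned share of NK cells with a UMI was 7.89% (5.96 to 10.2) and 2.92% (2.02 to 4.07), and 11.5% and 7.24% without thinning, at median depths of 3958 and 5520.5 UMIs. In nonclassical monocytes, where *Il7r* gave 2 UMIs in each library, the thinned shares were 0.741% and 0.318%, at median depths of 6610 and 8792. NK cells without maturation markers, taken alone, held 76.6 CPM (64.7 to 90.1) and 34.6 (28.6 to 41.4), a log2 ratio of -1.15 (-1.51 to -0.79). Mature NK cells held 15 and 18 UMIs, 22.8 CPM (12.7 to 37.6) and 7.56 (4.48 to 11.9). In Tregs *Il7r* stood at 250 CPM (230 to 271) and 181 (160 to 204), a log2 ratio of -0.47 (-0.68 to -0.26). With cells thinned to 2000 UMIs it was past the fold downward in Tregs.

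In CD8 T cells, *Il7r* followed the subset. Non-dividing cells held 145 CPM (136 to 156) and 178 (167 to 189), a log2 ratio of 0.29 (0.16 to 0.43), and dividing cells 29.8 (27.5 to 32.1) and 28.1 (25.9 to 30.4). Naive-like or memory-like cells, with at least 2 UMIs of a marker set that includes *Ccr7*, *Lef1* and *Tcf7* and none of the checkpoint genes, made up 14.0% (11.7 to 16.5) of non-dividing control and 22.8% (19.8 to 26.1) of non-dividing creatine CD8 T cells. They held 553 CPM (500 to 611) and 450 (413 to 489), a log2 ratio of -0.30 (-0.49 to -0.11), and checkpoint-positive cells held 57.7 (50.4 to 65.8) and 58.1 (50.6 to 66.3). With both subsets at equal weight, an alternative added after the data had been seen, the log2 ratio was -0.27 in place of 0.29. The direction turned, but this weighting leaves out the non-dividing cells in neither subset. Checkpoint-positive and naive-like or memory-like cells were 526 and 120 of 860 control cells, and 399 and 167 of 731 creatine cells. The gradient was steep in both libraries: non-dividing cells with no division gene held 174 and 215 CPM and cells with 9 to 12 of them 25.9 and 23.5. CD4 T cells held the most *Il7r*, 438 CPM (392 to 487) and 400 (365 to 438), apart from Tregs, and NK cells and dividing CD8 T cells held the least, with overlapping ranges. The order of *Il7r* over CD8 T cell subsets thus ran opposite to that of *Il2ra*, which was near its floor in naive-like or memory-like cells.

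**Figure D4:**
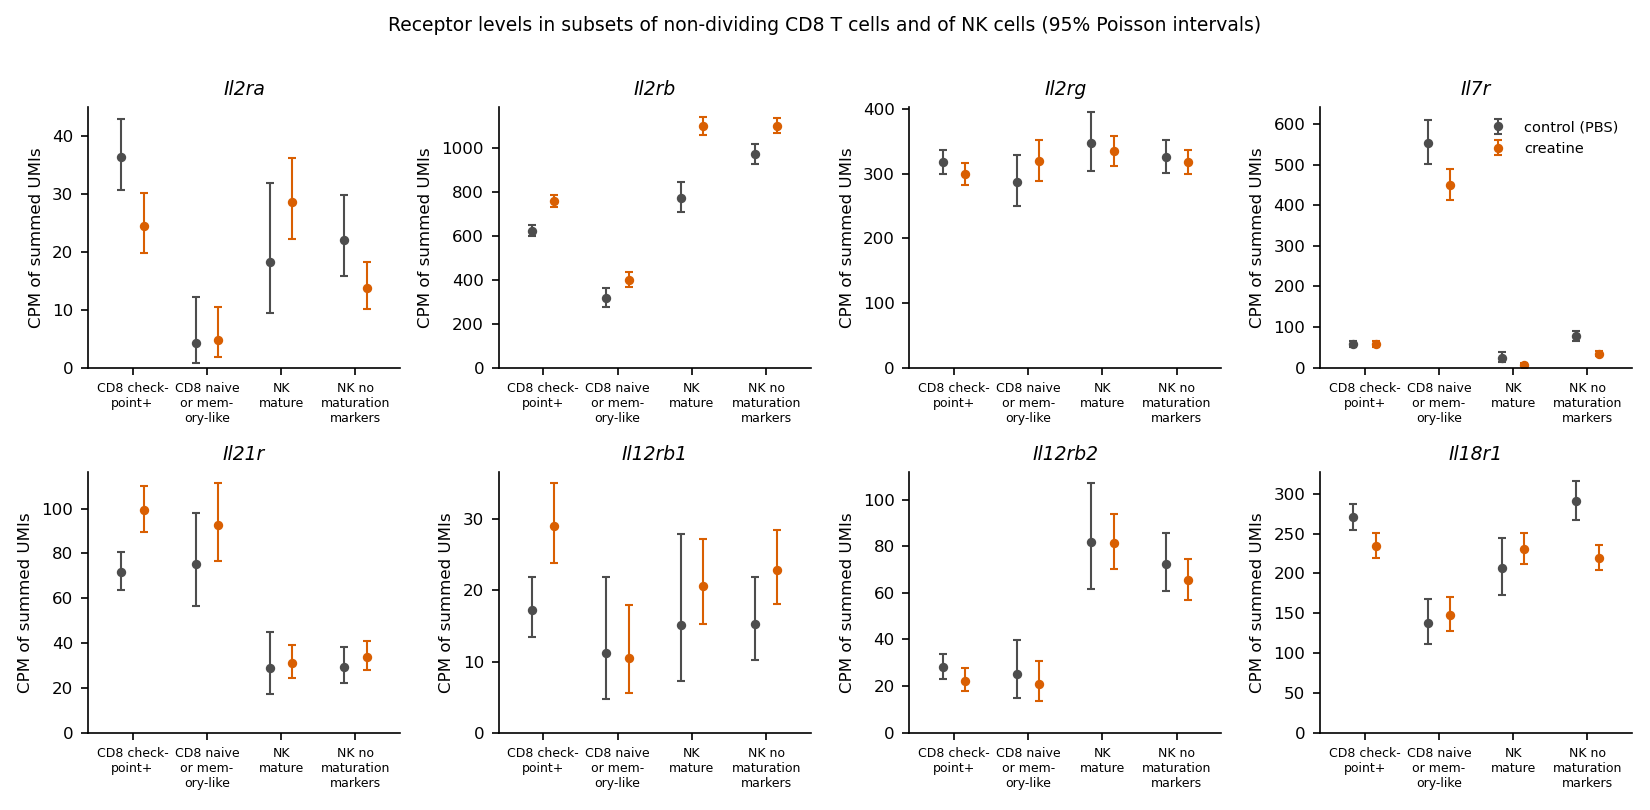
CPM of 8 receptor genes (y axis) in checkpoint-positive and naive-like or memory-like non-dividing CD8 T cells and in mature NK cells and NK cells without maturation markers (x axis), for the control (grey) and creatine (orange) library with 95% Poisson intervals. *Il7r* stood at 553 and 450 CPM in naive-like or memory-like cells against 57.7 and 58.1 in checkpoint-positive cells, and at 76.6 and 34.6 in NK cells without maturation markers.

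*Il15*, the only cytokine among the members, was highest in myeloid cells and DCs. Myeloid cells held 18.1 CPM (16.1 to 20.3; 297 UMIs) and 23.9 (21.5 to 26.6; 342 UMIs), a log2 ratio of 0.40 (0.18 to 0.63). DCs held 12.8 (9.05 to 17.6) and 16.2 (11.5 to 22.1), a range that overlaps that of myeloid cells. The lymphoid gates held at most 4.76 CPM (35 UMIs, in creatine NK cells), with 2 and 0 UMIs in CD4 T cells. The 0 allows up to 3 UMIs. After thinning, 3.12% (2.27 to 4.18) and 5.28% (4.05 to 6.75) of myeloid cells held an *Il15* UMI, and 16.3% and 20.8% without thinning, against 0.414% and 0.495% of thinned dividing CD8 T cells, which are deeper. Myeloid cells differed in makeup: C1q-positive macrophages were 53.9% of the control and 26.0% of the creatine gate and classical monocytes (*Ly6c2*, *Vcan*) 23.4% and 40.1%, and 135 and 315 cells were nonclassical monocytes (*Ace*, *Adgre4*). Within classical monocytes *Il15* stood at 18.2 CPM (13.7 to 23.8) and 28.5 (23.9 to 33.8), a log2 ratio of 0.65 (0.18 to 1.13). Within C1q-positive macrophages it stood at 19.4 (16.9 to 22.2) and 22.3 (18.7 to 26.4), with overlapping intervals. In each of these 3 subsets the level in the creatine library was the higher one.

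*Il15ra*, the chain that presents IL-15 in trans, was higher in creatine myeloid cells and lower in creatine DCs and dividing CD8 T cells. Myeloid cells held 18.9 CPM (16.8 to 21.1) and 26.9 (24.3 to 29.8), a log2 ratio of 0.51 (0.29 to 0.73), and classical monocytes 17.9 and 28.5, a log2 ratio of 0.67 (0.21 to 1.16). *Il15* and *Il15ra* thus lay on the same side in classical monocytes. DCs held 44.8 CPM (37.5 to 53.1; 133 UMIs) and 22.4 (16.8 to 29.3; 54 UMIs), with a log2 ratio whose interval runs from -1.48 to -0.53. With cells thinned to 2000 UMIs *Il15ra* was no longer past the fold in DCs. In this gate the 6 macrophage genes summed to 4133 and 9760 CPM, with none at 0, and the DC check genes *H2-Aa*, *Itgax* and *Cst3* to 20755 and 12520, and the part of these differences in the results on DCs was not tested. *Ccr7*+ DCs, the migratory state with UMIs of *Ccr7*, *Fscn1* and *Ccl22*, held the most of any subset, 183 CPM (147 to 224) in 55 control cells and 81.2 (48.9 to 127) in 17 creatine cells. Those few cells carried 92 of the 133 and 19 of the 54 UMIs of the DC gate, and cDC1, the cross-presenting *Xcr1* and *Clec9a* subset, held 12.2 (7.36 to 19.1) and 21.1 (14.0 to 30.4). The interval of the cDC1 log2 ratio, 0.78 (-0.11 to 1.71), includes 0. The remaining DCs held 24.1 (15.1 to 36.5) and 8.30 (3.34 to 17.1) on 22 and 7 UMIs, in the direction of *Ccr7*+ DCs. *Ccr7*+ DCs exceeded cDC1 by a log2 ratio of 3.90 (3.18 to 4.70) in the control and 1.95 (1.03 to 2.84) in the creatine library. They also held the most *Il15* in the control, 49.6 CPM (32.1 to 73.3; 25 UMIs), against 17.1 (4.66 to 43.8; 4 UMIs) in the creatine library.

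**Figure D5:**
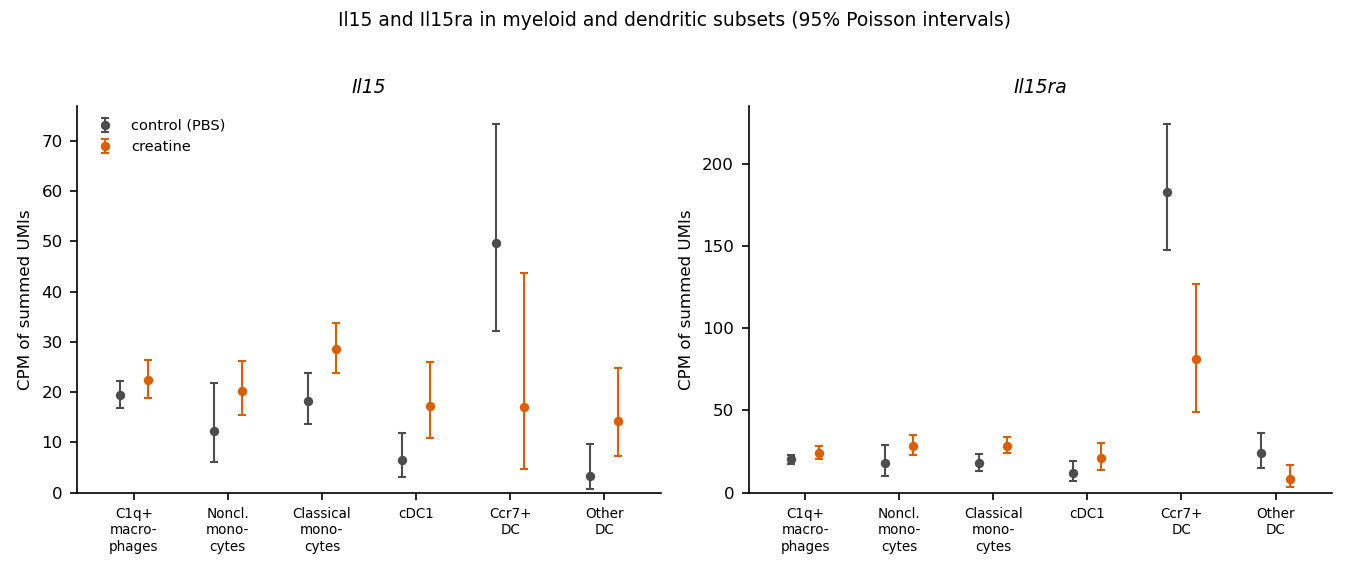
CPM of *Il15* (left) and *Il15ra* (right) in 3 myeloid and 3 DC subsets (x axis) for the control (grey) and creatine (orange) library with 95% Poisson intervals. Control *Ccr7*+ DCs reached 49.6 CPM of *Il15* and 183 CPM of *Il15ra*, and classical monocytes held 18.2 and 28.5 CPM of *Il15*.

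In lymphoid cells *Il15ra* was lower than 30 CPM in every gate. Dividing CD8 T cells held 23.6 CPM (21.6 to 25.6) and 17.0 (15.3 to 18.8), a log2 ratio of -0.47 (-0.67 to -0.28), and non-dividing ones 27.0 (22.8 to 31.7) and 29.4 (25.1 to 34.1). By division genes, *Il15ra* in the creatine library declined from 33.1 CPM in cells with none to 14.9 in cells with 9 to 12, and in the control it went from 20.6 through 31.1 with 1 or 2 genes to 21.0. With 1 or 2 genes the creatine library held 25.1 CPM, a log2 ratio of -0.31 (-0.63 to 0.006), and with 3 to 5 genes the log2 ratio was -0.28 (-0.68 to 0.11). Intervals of the ratio lay below 0 only in the bins from 6 genes upward. In cells with no division gene *Il15ra* was higher in the creatine library, by a log2 ratio of 0.68 (0.14 to 1.24) on 47 and 79 UMIs. NK cells, Tregs and CD4 T cells had overlapping intervals as well, with 60 and 121, 35 and 17, and 9 and 21 UMIs.

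*Il21r*, the IL-21 receptor, was higher in the creatine library in CD8 T cells and Tregs, under 1.5-fold. Dividing CD8 T cells held 67.6 CPM (64.2 to 71.1) and 86.4 (82.6 to 90.4), a log2 ratio of 0.35 (0.26 to 0.45), and non-dividing cells 72.3 (65.4 to 79.7) and 94.6 (86.9 to 103), a log2 ratio of 0.39 (0.20 to 0.58). Tregs held 73.4 (63.0 to 85.1) and 107 (91.4 to 125), a log2 ratio of 0.55 (0.23 to 0.87). In Tregs *Il21r* was past the fold upward with stricter gates, and with a minimum of 500 genes and a maximum of 10% mitochondrial UMIs. CD4 T cells held 69.5 (52.2 to 90.7) and 62.9 (49.5 to 78.9), and NK cells 29.8 (24.2 to 36.3) and 33.2 (29.2 to 37.6), with overlapping intervals in both gates. The T cell gates did not differ from their neighbors beyond their spread, and NK cells stood below all of them. *Il21r* was even over the division bins of the control library, at 66.5 to 74.0 CPM, unlike *Il2ra* and *Il7r*.

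The chains of the IL-12 receptor lay on opposite sides in dividing CD8 T cells. *Il12rb1*, which the IL-12 and IL-23 receptors share, stood at 14.9 CPM (13.3 to 16.6) and 22.4 (20.4 to 24.4) in dividing cells, a log2 ratio of 0.59 (0.38 to 0.79) at the edge of the fold. In non-dividing cells it stood at 16.0 (12.9 to 19.7) and 24.6 (20.7 to 28.9), a log2 ratio of 0.62 (0.23 to 1.02), which was no longer past the fold with thinned cells, with equal weights of subsets or without mitochondrial and ribosomal protein genes. In dividing cells it fell inside the fold with TMM and 4 other alternatives at the fold of 1.5. *Il12rb2*, the signaling chain, stood at 27.7 (25.6 to 30.0) and 20.1 (18.3 to 22.1) in dividing cells, a log2 ratio of -0.46 (-0.64 to -0.28). In non-dividing cells it stood at 26.6 (22.5 to 31.3) and 22.9 (19.2 to 27.1), with overlapping intervals. Among non-dividing cells, checkpoint-positive ones held 17.3 (13.4 to 21.9) and 29.0 (23.9 to 35.0) CPM of *Il12rb1*. Naive-like or memory-like cells held 8 and 13 UMIs, and non-dividing cells in neither subset were not read alone. Detection of both chains in 1 cell after thinning was at most 0.245% in CD8 T cells, which is too rare to compare.

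In NK cells, *Il12rb2* was the highest of any gate by its mean, at 73.7 CPM (64.7 to 83.6) and 72.4 (66.4 to 78.8), though its range overlaps that of CD4 T cells. It exceeded non-dividing CD8 T cells by a log2 ratio of 1.47 (1.17 to 1.77) in the control and 1.66 (1.39 to 1.95) in the creatine library. NK cells held 16.0 CPM (11.9 to 20.9) and 23.7 (20.3 to 27.5) of *Il12rb1*, a log2 ratio of 0.57 (0.11 to 1.04) just under the fold. In CD4 T cells *Il12rb2* stood at 54.1 (39.0 to 73.1) and 27.7 (19.1 to 38.9), a log2 ratio of -0.97 (-1.67 to -0.27) that rests on 42 and 33 UMIs, and after thinning, 7.79% and 7.65% of CD4 T cells held a UMI, and 15.9% and 11.2% without thinning. The lower level in CD4 T cells was thus not matched by a lower thinned share, and with cells thinned to 2000 UMIs the log2 ratio was 0.27. In Tregs 44 and 18 UMIs gave a log2 ratio of -0.62 (-1.50 to 0.20), and *Il12rb2* was not past the fold there with mixed cells kept, with equal weight per cell or with thinned cells. The highest mean of *Il12rb1* was that of Tregs, 39.4 CPM (31.9 to 48.3) and 48.7 (38.2 to 61.2), whose range overlaps that of CD4 T cells.

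*Il18r1*, the ligand-binding chain of the IL-18 receptor, differed by less than 1.5-fold in every lymphoid gate, and not in 1 direction. NK cells held 272 CPM (254 to 291) and 222 (212 to 233), a log2 ratio of -0.29 (-0.41 to -0.17). NK cells without maturation markers held 291 (268 to 317) and 219 (204 to 235). Mature NK cells held 207 (173 to 244) and 231 (212 to 251), with overlapping intervals. Other NK cells are in neither subset and were not read alone. Tregs, the lowest gate, held 84.3 (73.1 to 96.8) and 108 (92.1 to 126), a log2 ratio of 0.36 (0.05 to 0.66). Of the 162 creatine UMIs in Tregs, 30 lay in 3 cells. Without the 3 highest cells of each library the log2 ratio was 0.25 (-0.09 to 0.58), which includes 0. Dividing CD8 T cells held 184 (178 to 189) and 186 (180 to 192), non-dividing ones 239 (227 to 253) and 212 (200 to 224), and CD4 T cells 284 (248 to 325) and 259 (231 to 290). CD4 T cells, NK cells and non-dividing CD8 T cells did not differ from their neighbors beyond the spread, and dividing CD8 T cells and Tregs each stood apart. Checkpoint-positive CD8 T cells exceeded naive-like or memory-like ones by a log2 ratio of 0.97 (0.68 to 1.29) in the control and 0.67 (0.44 to 0.90) in the creatine library, a direction *Il18r1* shares with *Il2rb* and not with *Il7r*.

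Of 33 other genes of these pathways (9 ligands, 4 receptors, 9 kinases and STATs, 4 IL-18 adaptors, 5 inhibitors, 2 STAT5 targets), between 2 and 8 were past the fold in each gate. In dividing CD8 T cells, 24 had the minimum of UMIs, the ligand gene *Il21* and the cytokine inhibitor *Socs3* were higher (3.83% of all genes) and none was lower (4.09%). Of the 59 creatine *Il21* UMIs, 35 lay in 3 cells, and without the 3 highest cells of each library its log2 ratio was 0.54 (-0.42 to 1.53), inside the fold. Non-dividing CD8 T cells had 23 with the minimum, where *Il2* and *Socs2* were higher (3.94% of all genes) and none was lower (3.49%). *Socs2* rested on 19 and 33 UMIs. Without the 3 highest cells of each library its log2 ratio was 0.92 (-0.09 to 2.01), which includes 0. *Il2* gave 16 UMIs in 16 control cells and 133 UMIs in 24 creatine cells, which is 2.98 (2.23 to 3.83) as a log2 ratio, but 110 of the 133 lay in 3 cells. Without the 3 highest cells of each library the log2 ratio of *Il2* was 0.75 (-0.29 to 1.85), so the IL-2 signal rested on those cells. In CD4 T cells, *Irak4* and *Socs3* were higher among 18 (6.29% of all genes), and *Il18rap*, the partner chain of *Il18r1*, was lower (5.41%), at 139 and 89.8 CPM, a log2 ratio of -0.63 (-1.03 to -0.23). *Irak4* rested on 14 and 37 UMIs there. Without the 3 highest cells of each library its log2 ratio was 0.68 (-0.38 to 1.84), which includes 0.

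In Tregs, *Stat5b*, *Irak4*, *Socs1*, *Socs3* and *Pim1* were higher among 20, beside 6.74% of all genes, and none was lower, beside 4.66%. *Stat5b*, a STAT downstream of the IL-2 receptor, stood at 29.8 and 59.4 CPM (71 and 89 UMIs), and *Pim1*, a kinase gene that STAT5 induces, at 294 and 472. In NK cells, *Pim1* was higher among 21 (3.12% of all genes), at 180 and 281 CPM, a log2 ratio of 0.64 (0.51 to 0.78), and *Socs2* was lower (4.11%), at 18.7 and 8.30. In myeloid cells, *Il18*, *Myd88* and *Socs1* were higher among 23 (6.79% of all genes) and *Socs2* was lower (7.72%). *Il18*, the ligand of the *Il18r1* chain, stood at 38.0 and 57.7 CPM there, a log2 ratio of 0.60 (0.45 to 0.76), and *Socs1* at 58.6 and 160. In DCs, *Il12b*, *Il18*, *Il18bp*, *Socs1* and *Socs3* were higher among 24 (9.36% of all genes) and *Stat4*, *Socs2* and *Cish* were lower (7.51%). Without the 3 highest cells of each library the log2 ratio of *Socs3* was 0.57 (0.28 to 0.87), inside the fold. *Il12b*, the p40 chain of the ligand of *Il12rb1*, gave 109 UMIs in 14 control cells and 165 in 4 creatine cells, 163 of them in 3 cells. Without the 3 highest cells of each library 52 and 2 UMIs were left, a log2 ratio of -4.40 (-7.48 to -2.47). The direction turned, so the higher value of *Il12b* describes those cells. *Stat4*, which IL-12 activates, stood at 89.9 and 29.5 CPM in DCs, a log2 ratio of -1.61 (-2.01 to -1.23). *Ccr7*+ DCs, 55 of 206 control and 17 of 160 creatine cells, held 228 of the 267 and 47 of the 71 *Stat4* UMIs and 206 of the 215 and 62 of the 66 *Socs2* UMIs. Within them the log2 ratio was -1.17 (-1.66 to -0.71) for *Stat4* and -0.63 (-1.06 to -0.21) for *Socs2*.

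Likeness between genes was read over the 10 points of 5 lymphoid gates in both libraries, which share libraries and depth, as Pearson's r of log2(CPM + 1) among 6372 genes. The genes closest to *Il2ra* were *Gpx1* (0.97), *P4ha1* (0.96) and *Got1* (0.96), to *Il2rb* *Rpl10-ps3*, *Elmo2* and *Adora2a* (0.96 to 0.98), and to *Il2rg* *Ip6k1*, *Pag1* and *Tnfaip8l2* (0.95 to 0.98). *Il7r* was closest to *Slco3a1*, *Gpr183* and *AU020206* (0.95 to 0.97), and *Il21r* to *Hdac7*, *Pitpnm2* and *Chst2* (0.96 to 0.97). *Il12rb1* was closest to *Selenok*, *Nrd1* and *Lrp10* (0.94 to 0.96), *Il12rb2* to *Hgsnat*, *Zfpm1* and *Fiz1* (0.94 to 0.96), and *Il18r1* to *Arid5a*, *Slc20a1* and *Pde7a* (0.95 to 0.97). *Il15ra* was closest to *Rpl18*, *Rps9* and *Eif3e* (0.90 to 0.94), and the genes like *Il15*, which had at most 35 UMIs in any of these gates, included *Spred2* (0.91) and *Rnf169* (0.85).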

How the data were processed

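Droplet 3′ scRNA-seq libraries (10x Genomics v2 chemistry per the methods) were made from TIIs of control and creatine-treated mice, 1 per condition. The authors ran Cell Ranger (3.0.2 in the submitters' processing notes, mm10) and deposited raw UMI counts per gene and called cell, not normalized, as 1 matrix a library. The authors' aggregation with Cell Ranger and their Seurat analysis were not used here. The lists of genes and barcodes were used only to name rows and cells.

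Cells with at most 25% mitochondrial UMIs were kept. The lowest total of UMIs in any kept cell was 501 and the lowest number of genes was 269. The study's minimums of UMIs and genes thus removed none of the kept cells. After this filter the control library held 79319769 and the creatine library 72091124 UMIs. Gates were set on UMIs per cell of marker genes that are not members: T cells had at least 2 UMIs of *Cd3d*, *Cd3e* and *Cd3g*, with at least 2 of *Cd8a* and *Cd8b1* for CD8, at least 1 of *Cd4* for CD4 and at least 1 of *Foxp3* for Tregs; NK cells had at least 2 of *Ncr1*, *Klrb1c*, *Klra4* and *Klra8*; myeloid cells at least 3 of *Csf1r*, *Adgre1*, *Fcgr1* and *Cd68*; DCs at least 2 of *Flt3*, *Zbtb46*, *Xcr1* and *Clec9a* or at least 3 of *Ccr7*, *Fscn1* and *Ccl22*. Cells with UMIs of several lineages were left out, and 7 control and 4 creatine cells fell in 2 gates. UMIs were summed per gate and library and scaled to CPM. UMIs near the 3′ end count molecules, and levels of different genes were not compared. Named genes were the 10 members in every gate, the 33 other pathway genes past the fold with at least 50 UMIs, and the 3 genes most like each member with at least 500 UMIs per library. A marker gene of a subset and a gene of the likeness list are not reported here. The members and lists were chosen with earlier results of these data known.

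Doublets were kept, since Scrublet's threshold marked 2 and 8 cells; one alternative dropped 6% of cells, those scoring highest (434 and 374). Other alternatives were stricter gates, no exclusion of mixed cells, a minimum of 500 genes with a maximum of 10% mitochondrial UMIs, scaling by TMM (edgeR 4.0.16 in R 4.3.3), CPM computed without ribosomal protein and mitochondrial genes, cells weighted equally, cells thinned to 2000 UMIs (shares also to 1000), division genes counted in thinned cells, CD4 T cells without *Ikzf2*, a fold of 2 and a minimum of 20 UMIs. Equal weights of subsets were added after the data had been seen, and leave out cells of a gate that are in none of its subsets. The interval computation was tested on simulated data. Calculations used Python 3.11.15 with numpy 2.4.6.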

Additional observations from a re-analysis of the deposited data

Results flagged for a closer look

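The effect of the libraries on *Il7r* differed between gates. In non-dividing CD8 T cells the log2 ratio of creatine to control was 0.29 (0.16 to 0.43) and in NK cells -1.19 (-1.49 to -0.89), a gap of 1.48 with intervals on opposite sides of 0. With equal weights of subsets the value in non-dividing CD8 T cells was -0.27, on the same side as NK cells. That weighting leaves out the non-dividing cells in neither subset. The difference itself was not tested, since each condition is 1 library. In non-dividing CD8 T cells the share of naive-like or memory-like cells was 14.0% for control and 22.8% for creatine, and in those cells alone the log2 ratio was -0.30 (-0.49 to -0.11).

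*Il18r1* had a log2 ratio of 0.36 (0.05 to 0.66) in Tregs and -0.29 (-0.41 to -0.17) in NK cells, a gap of 0.65, which was not tested either. Without the 3 highest cells of each library the log2 ratio was 0.25 (-0.09 to 0.58) in Tregs, an interval that includes 0. In NK cells it was -0.28 (-0.40 to -0.16).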

How the results depend on the processing

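No paired analysis was possible because each condition is 1 library and no result comes from a test. Of the creatine to control ratios of the members, 398 moved by less than their interval over the alternatives, 33 moved by more, and 1 that was past the fold turned: *Il12rb2* in CD4 T cells, at 0.27 with cells thinned to 2000 UMIs. Ratios inside the fold could turn too, as *Il7r* in non-dividing CD8 T cells at -0.27 with equal weights of subsets. Of the ratios between gates, 349 moved by less than their interval and 67 by more; of the shares, 21 and 87. Of the counts of members past the fold, 120 stayed and 36 moved, each by 1 or 2 members. In dividing CD8 T cells, 0 members were higher without exclusion of mixed cells, with a minimum of 500 genes and a maximum of 10% mitochondrial UMIs, with TMM, without mitochondrial and ribosomal protein genes, with equal weight per cell and at a fold of 2, since *Il12rb1* lay at the edge; 2 were lower when thinned and 0 at a fold of 2. In non-dividing CD8 T cells, 0 were higher without mitochondrial and ribosomal protein genes, when thinned, with equal weights of subsets and at a fold of 2. There 1 member, *Il2ra*, was lower without high doublet scores, with TMM and without mitochondrial and ribosomal protein genes. It was also lower when thinned and with division genes counted in thinned cells. In CD4 T cells, 1 was higher with a minimum of 20 UMIs, and 0 were lower with stricter gates, when thinned and without *Ikzf2*, and 1 at a fold of 2. In Tregs, 1 (*Il21r*) was higher with stricter gates and with the limits on genes and mitochondrial UMIs, and 0 were lower without exclusion and at a fold of 2. The count of lower members there stayed at 1 while the gene changed. In place of *Il12rb2* it was *Il15ra* with equal weight per cell and *Il7r* when thinned. In NK cells, 1 was higher in 4 alternatives, but not the same gene. It was *Il12rb1* with the limits on genes and mitochondrial UMIs and when thinned. Without exclusion and with a minimum of 20 UMIs it was *Il15*, which had 8 and 35 UMIs in the main gate. There 2 were lower with equal weight per cell (*Il2ra* and *Il7r*) and 3 when thinned (*Il2ra*, *Il7r* and *Il15ra*). In myeloid cells, 1 was higher when thinned. In DCs, 1 was higher without exclusion, and 0 were lower when thinned and at a fold of 2. The causes were not tested. TMM factors of the main gates lay between 0.981 and 1.02.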

Other observations

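The receptors were also measured in myeloid cells and DCs, where they were not part of the comparison. *Il7r* stood at 98.6 CPM (93.8 to 103; 1619 UMIs) in control and 30.5 (27.7 to 33.5; 436 UMIs) in creatine myeloid cells. In classical monocytes 314 UMIs in 69 of 333 control cells stood against 44 UMIs in 20 of 464 creatine cells, a log2 ratio of -3.49 (-3.98 to -3.03), and without the 3 highest cells of each library it was -3.70 (-4.28 to -3.17). In C1q-positive macrophages *Il7r* stood at 97.2 and 61.9 CPM, a log2 ratio of -0.65 (-0.82 to -0.48), and nonclassical monocytes held 2 UMIs in each library. After thinning, 12.8% (9.39 to 16.9) and 2.16% (1.04 to 3.94) of classical monocytes held an *Il7r* UMI, and 20.7% and 4.31% without thinning. These cells had at most 1 UMI of the CD3 genes by their gate.

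*Il12rb1* stood at 19.2 CPM (16.7 to 22.0; 211 UMIs) in control and 49.3 (43.9 to 55.2; 300 UMIs) in creatine C1q-positive macrophages, a log2 ratio of 1.36 (1.10 to 1.62), and at 7.42 and 7.93 in classical monocytes. *Il21r* stood at 30.3 (27.1 to 33.7) and 47.8 (42.5 to 53.6) in the same macrophages. *Ccr7*+ DCs held the most *Il2ra* of any myeloid or DC subset, 105 CPM (78.8 to 138; 53 UMIs) and 64.1 (35.9 to 106; 15 UMIs), and exceeded cDC1 by a log2 ratio of 5.03 (3.72 to 6.71) in the control. Of the 15 creatine *Il2ra* UMIs, 11 lay in 3 of 17 cells. *Ccr7*+ DCs also held 236 and 137 CPM of *Il7r*, of whose 32 creatine UMIs 26 lay in 3 of 17 cells.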
